A study of Mus musculus with 8 samples.

Results

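The 8 arrays of this series were compared by replicate number: the 4 arrays numbered 1 and 2 against the 4 numbered 3 and 4. Each set held 2 arrays of Sox10 Dom/Dom cultures, homozygous for the Dom frameshift allele of Sox10, and 2 arrays of wild-type (WT) cultures. The members were taken from the replicate numbers in the sample titles, and they are all 8 arrays of the series. Genotype is therefore balanced between the sets, and the comparison describes what differed between cultures beyond genotype. Every array came from mouse embryos at embryonic day 9.5. Pieces of neural tube from behind somite 24 were grown in DMEM/F12 with 10% fetal bovine serum and lifted off at 24 h, and RNA of the sacral neural crest cells that had left them was hybridised to Affymetrix Mouse Gene 1.0 ST arrays. No label says what the numbers stand for (a litter, a day or a labelling run), whether embryos were pooled, or whether the WT embryos were littermates of the mutants. What the tests below weigh is thus the scatter among these 8 samples, of biological or technical origin.

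Neural crest cells leave the dorsal neural tube and form peripheral neurons, glia and pigment cells. Sacral crest supplies part of the enteric neurons of the hindgut. An explant of the posterior neural tube at this age lies beside the tail bud, somites, mesoderm and vessels, and cells of the tube itself carry their own programme of SoxB, Hox, Wnt and hedgehog genes.

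In the table used here 7416 probe sets were paired with exactly 1 gene symbol. The brightest probe set stood for each of the 6855 genes, 6707 of them on chromosomes 1 and 10 to 16. Genes of the other chromosomes are thus nearly all missing. All genes below means these 6855, and each gene list holds only the members measured here. Array medians lay between 8.6 and 8.78 log2 units, and levels correlated between arrays at 0.985 to 0.998 across genes. Crest markers were bright on every array: Pax3, a transcription factor of the dorsal tube and crest, lay between 12.31 and 12.63, and Tfap2a, a crest specifier, between 11.08 and 11.95. Sox10 itself stood at 9.98 and 10.94 in Dom/Dom and 11.67 and 11.46 in WT of replicates 1 and 2, and at 10.52 and 10.55 in Dom/Dom and 11.89 and 11.75 in WT of replicates 3 and 4. The sets overlapped for Sox10 within Dom/Dom, and its difference between sets was 0.17 (standard error 0.171, limma adjusted p = 0.560).

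Between the sets 1088 of 6855 genes (15.9%) differed, of which 426 (6.21%) were higher and 662 (9.66%) lower in replicates 3 and 4 (limma with genotype as covariate, Benjamini-Hochberg adjusted p under 0.05). The split depends on the scaling of the arrays: centred on their medians, 610 genes were higher and 460 lower. Most differences were small. Of the genes that passed, 131 differed by at least 1.5-fold, 63 upward and 68 downward, and 10 by at least 2-fold, 9 of them upward. All values below are log2 levels, and a difference is replicates 3 and 4 minus replicates 1 and 2.

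The set accounted for more of the variation between arrays than genotype did. Summed over genes, 37.2% of the sum of squares lay between the sets, 22% between genotypes, 23.6% between replicate numbers within a set (11.8% per degree of freedom), 7.82% in the dependence of the set difference on genotype and 9.35% in the remainder. The median gene differed by 0.123 between the sets in absolute size, by 0.14 between replicates 2 and 1, by 0.0958 between replicates 4 and 3, and by 0.0604 between genotypes. Replicates 1 and 2 were thus further apart than replicates 3 and 4. The median difference between the sets was no larger than that between replicates 1 and 2. The first averages 4 arrays a side and the second 2, so their sizes are not directly comparable.

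**Figure D1:**
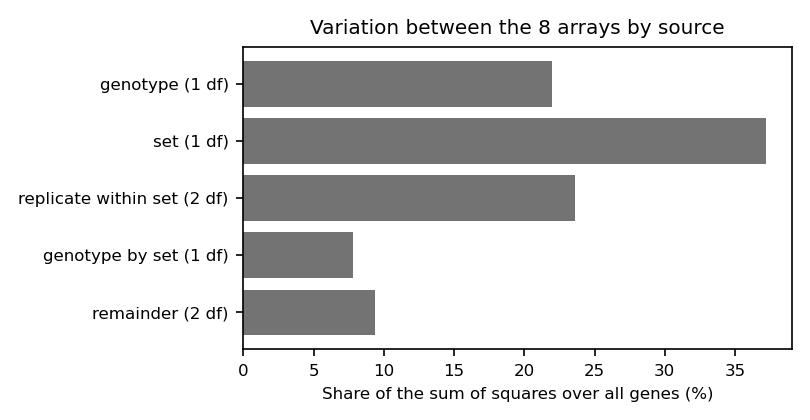
Share of the sum of squares over 6855 genes (%, horizontal axis) by source in the balanced layout of the 8 arrays, with degrees of freedom (df) in brackets. The set holds 37.2% and genotype 22%, and replicate numbers within a set hold 23.6% over 2 df.

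Same-numbered arrays of the 2 genotypes deviated together, so a replicate number was also fitted as a random block (consensus correlation 0.427). With the replicate block 379 genes (5.53%) passed, 143 higher (2.09%) and 236 lower (3.44%), and all 379 were among the 1088. The shares 5.53%, 2.09% and 3.44% are the comparison for each list's count with the block below. Averaging the 2 arrays of each number gave 375 genes. Among genes given below as passing with the block, Abi3bp, Axin2, Bcl2, Ddit4, Fasn, Lamb1, Npm1, Socs2 and Trib1 did not pass on these averages (limma adjusted p from 0.051 to 0.0761). The count fell most when arrays of replicates 3 or 4 were left out. It was 595 and 645 without Dom/Dom replicates 3 and 4, and 707 and 516 without WT replicates 3 and 4. It was 152 without both arrays of replicate 3 and 45 without both of replicate 4. Without both arrays of replicate 1 or 2 it was 1317 and 1416. Such a count depends on the size of the differences and on the spread of the remaining arrays, and their parts were not tested.

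The differences ran the same way in both genotypes. Each of the 1088 genes had the same sign in Dom/Dom and in WT, as did 5023 of all 6855 (73.3%). Passing a test over both genotypes already favours equal signs. In 1996 genes (29.1%) the sets did not overlap within either genotype and lay in the same order, and 1061 of these were among the 1088. In 1512 genes (22.1%) all 4 arrays of one set lay above all 4 of the other. Across genes, the differences in Dom/Dom and in WT, which share no array, correlated at 0.654 over 6855 genes. Genes are not independent replicates, and both values of a gene come from the same probe set.

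A test of whether the set difference depended on genotype passed for 1 gene of 6855 (0.0146%), Gabrp, with 260 genes (3.79%) at an unadjusted p under 0.05. Gabrp encodes the pi subunit of the GABA-A receptor. It stood at 8.83 and 8.04 in Dom/Dom and 7.80 and 8.08 in WT of replicates 1 and 2, and at 7.74 and 7.85 in Dom/Dom and 10.44 and 10.46 in WT of replicates 3 and 4. The high arrays were the WT arrays of replicates 3 and 4, and the other 6 overlapped. The differences were -0.64 in Dom/Dom and 2.51 in WT, which is an interaction of -3.15 (standard error 0.307, limma adjusted p = 0.0179). The count of such genes was 0 in each fit that left out WT replicate 1 or 2 or any array of replicates 3 and 4.

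**Figure D2:**
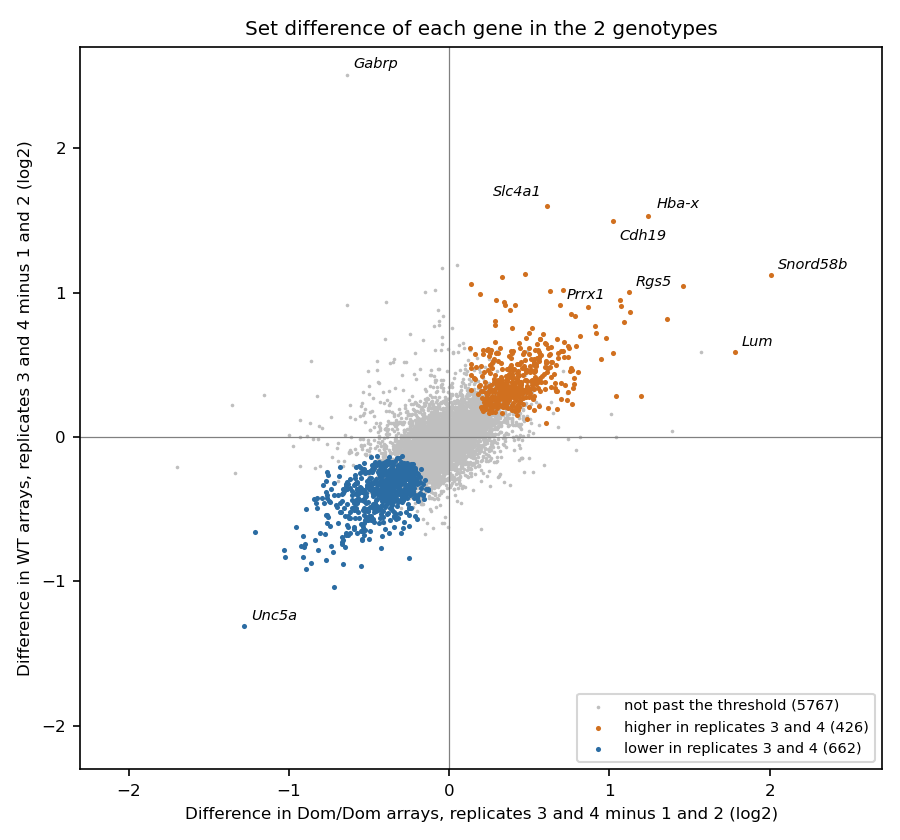
Difference of each gene between the sets (replicates 3 and 4 minus 1 and 2, log2) in Dom/Dom arrays (horizontal) and in WT arrays (vertical), 1 point per gene. The 426 orange and 662 blue points passed the threshold and all lie in the quadrants of equal sign, while Gabrp lies at -0.64 and 2.51.

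The largest falls in replicates 3 and 4 included guidance, polarity and neural progenitor genes. Unc5a, a netrin receptor of migrating cells and axons (probe set 10405355, chromosome 13), stood at 11.05 and 11.83 in Dom/Dom and 10.98 and 11.69 in WT of replicates 1 and 2, and at 10.07 and 10.25 in Dom/Dom and 10.04 and 10.01 in WT of replicates 3 and 4. The sets did not overlap, and replicate 2 was higher than replicate 1 in both genotypes. Unc5a was 2.45-fold lower in replicates 3 and 4 (difference -1.29, standard error 0.180, limma adjusted p = 0.00211).

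Celsr1, a cadherin of planar cell polarity (probe set 10431229, chromosome 15), stood at 11.81 and 12.05 in Dom/Dom and 12.01 and 11.94 in WT of replicates 1 and 2, against 11.01 and 11.07 in Dom/Dom and 11.10 and 11.02 in WT of replicates 3 and 4. Its 2 groups of 4 arrays were tight and did not overlap (difference -0.90, standard error 0.0711, limma adjusted p = 0.000268). Sema5b, a transmembrane semaphorin of axon guidance, fell by 0.84 (limma adjusted p = 0.00146), and Hes6, a helix-loop-helix factor that promotes neuronal differentiation, fell by 0.82 (0.00180).

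Further falls were those of Cacna1g, a T-type calcium channel (-0.93, limma adjusted p = 0.000857), Egln3, an oxygen-sensing prolyl hydroxylase (-0.88, 0.00135), Cenpv, a centromere protein (-0.87, 0.000251), Slain1, a regulator of microtubule ends (-0.84, 0.00104), and the transporter gene Slc22a23 (-0.81, 0.000354). Each kept its call with the replicate block, at adjusted p from 0.00203 to 0.0101. Among genes outside the rule for named genes, chosen after their values were seen, the neural tube factor Rfx4 (-0.80), the tail and limb factor Sp8 (-0.75) and the chemokine receptor Cxcr4 (-0.77) also fell (limma adjusted p from 0.000857 to 0.00831).

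The largest rises came from several kinds of gene. Rgs5, a regulator of G-protein signalling in pericytes (probe set 10351455, chromosome 1), stood at 10.49 and 10.60 in Dom/Dom and 9.81 and 9.61 in WT of replicates 1 and 2, and at 11.62 and 11.71 in Dom/Dom and 10.63 and 10.79 in WT of replicates 3 and 4. It was higher in replicates 3 and 4 in both genotypes and higher in Dom/Dom in both sets. This is a 2.09-fold rise (difference 1.06, standard error 0.0771, limma adjusted p = 0.000251).

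Cnpy2, a protein of the endoplasmic reticulum linked to FGF signalling, stood at 10.52 and 10.73 in Dom/Dom and 10.77 and 10.82 in WT of replicates 1 and 2, and at 11.63 and 11.76 in Dom/Dom and 11.65 and 11.75 in WT of replicates 3 and 4. No array of either set came near the other set (difference 0.99, standard error 0.0762, limma adjusted p = 0.000268). Srgn, the granule proteoglycan serglycin of blood cells and endothelium, rose by 1.00 (limma adjusted p = 0.00106), and the uncharacterised gene F630048H11Rik by 1.01 (0.00630).

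Snord58b, a small nucleolar RNA that guides methylation of ribosomal RNA, had the largest rise of all, 1.57 (standard error 0.199, limma adjusted p = 0.00160), from a mean of 6.02 to 7.58. Snord58b lies on chromosome 18, but its probe set (10414659) is numbered among those of genes on chromosome 14, so its assignment is uncertain. Snord58b, the noncoding RNA Dleu2 and the microRNA genes Mirlet7f-1 and Mir10a had means below 8.13, the level under which 95% of receptor genes of smell and taste lay, so their levels were those of dim probe sets. The same holds for Abi3bp, Ccl3, Il1r1, Il1rl2, Kcnk9, Lyz2, Mmrn2, Rian, Tbx4 and Mir181a-1, described below.

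Of the 24 genes with the largest changes, 23 passed in each of the 8 fits that left out 1 array, and 20 passed with the replicate block. The 4 lost with the block were Hba-x, Slc4a1, Lum and Mir218-2. Without both arrays of replicate 3, 19 of the 24 passed, and without both of replicate 4, 10 did: Cacna1g, Celsr1, Cenpv, Cnpy2, Egln3, Hoxc12, Rgs5, Slain1, Slc22a23 and Srgn.

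**Figure D3:**
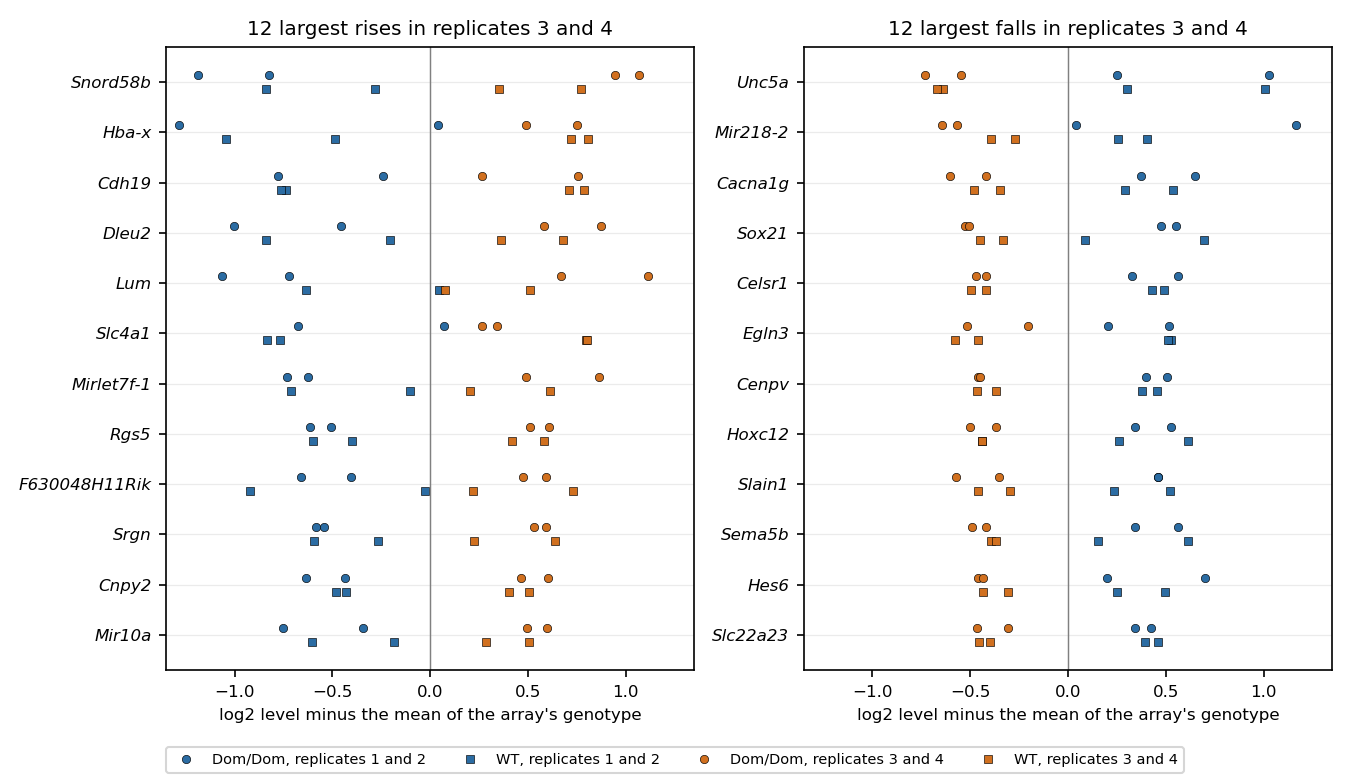
Log2 level of each array minus the mean of its genotype for the 12 genes with the largest rises (left) and the 12 with the largest falls (right) among genes that passed and whose sets did not overlap within either genotype. Circles are Dom/Dom and squares WT arrays, blue for replicates 1 and 2 and orange for 3 and 4; the rises run from 0.94 to 1.57 and the falls from -0.81 to -1.29.

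Hox genes give cells their position along the body axis, and in the HoxB and HoxC clusters the genes are ordered so that low-numbered groups are expressed further forward and high-numbered groups further back. Of 11 measured genes of groups 1 to 8, 9 (81.8%) fell and 0 rose, beside 9.66% lower and 6.21% higher over all genes. The list's median difference was -0.295 (-0.369 in Dom/Dom and -0.343 in WT), beside -0.04 over all genes. With the replicate block 4 fell (3.44% of all genes did), and leaving out 1 array gave 5 to 7.

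Hoxb1 (probe set 10380665, chromosome 11) stood at 11.48 and 11.83 in Dom/Dom and 11.57 and 11.70 in WT of replicates 1 and 2, and at 11.03 and 10.94 in Dom/Dom and 10.97 and 10.85 in WT of replicates 3 and 4. All 4 arrays of replicates 3 and 4 lay below those of replicates 1 and 2 (difference -0.70, standard error 0.0871, limma adjusted p = 0.00151). Hoxb3 fell by 0.54, Hoxb4 by 0.60 and Hoxc8 by 0.60, with limma adjusted p from 0.00224 to 0.00538, and these 4 are the genes that passed with the replicate block.

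Hoxb5 (-0.48, limma adjusted p = 0.00801), Hoxb2 (-0.30, 0.0294), Hoxc4 (-0.29, 0.0234), Hoxc5 (-0.29, 0.0387) and Hoxb7 (-0.27, 0.0322) passed without the block and had adjusted p from 0.0605 to 0.176 with it. The members that did not pass were Hoxb6, at -0.02, and Hoxc6, at 0.17 (limma adjusted p = 0.869 and 0.142). In the HoxC cluster Hoxc6 thus had a difference of opposite sign to Hoxc4, Hoxc5 and Hoxc8.

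Of the 7 measured genes of groups 9 to 13, 2 fell and 0 rose (28.6%, beside 15.9% of all genes in either direction). With the replicate block 1 of these 2 fell, beside 3.44% of all genes. Hoxc12 (probe set 10427272, chromosome 15) stood at 13.34 and 13.15 in Dom/Dom and 13.47 and 13.12 in WT of replicates 1 and 2, against 12.45 and 12.32 in Dom/Dom and 12.42 in both WT arrays of replicates 3 and 4. The sets were far apart relative to their spread (difference -0.87, standard error 0.0883, limma adjusted p = 0.000857). Hoxb9 fell by 0.31 (limma adjusted p = 0.0124; 0.0597 with the replicate block).

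The other 5 posterior genes did not pass and had both signs. Hoxc9 and Hoxc10 differed by 0.24 and 0.16, and Hoxc11, Hoxc13 and Hoxb13 by -0.26, -0.37 and -0.30 (limma adjusted p from 0.0711 to 0.283).

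**Figure D4:**
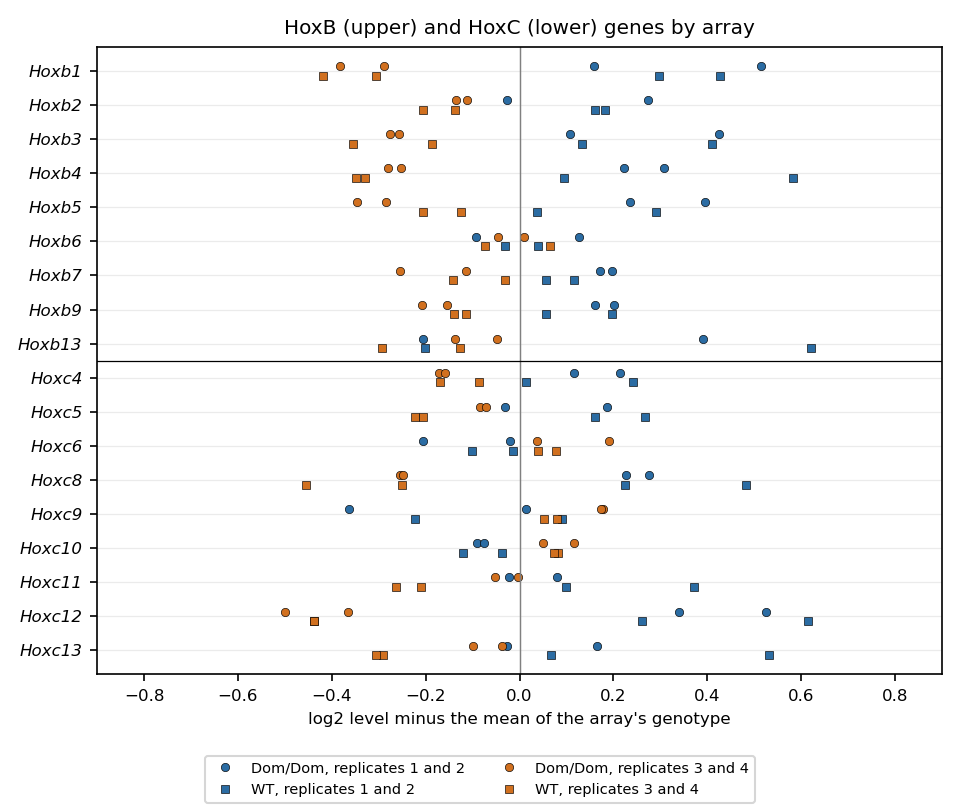
Log2 level of each array minus the mean of its genotype for the 9 HoxB genes (upper rows) and 9 HoxC genes (lower rows). Circles are Dom/Dom and squares WT arrays, blue for replicates 1 and 2 and orange for 3 and 4; the sets separate for genes such as Hoxb1 (difference -0.70) and Hoxc12 (-0.87) and mix for Hoxb6 (-0.02).

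Genes of the Wnt, Notch and hedgehog pathways that passed were nearly all lower in replicates 3 and 4. Wnt ligands bind Frizzled receptors, hedgehog ligands act through Ptch1 on Gli transcription factors, and all 3 pathways pattern the posterior neural tube and mesoderm. Of 35 measured members 14 fell and 1 rose (42.9% in either direction, beside 15.9% of all genes), and the median difference was -0.217. With the replicate block 7 fell and 0 rose, and leaving out 1 array gave 9 to 15 falls.

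Among hedgehog genes, Ptch1, receptor and target of the pathway, stood at 12.32 and 12.12 in Dom/Dom and 11.91 and 11.98 in WT of replicates 1 and 2, against 11.40 and 11.50 in Dom/Dom and 11.55 and 11.58 in WT of replicates 3 and 4. Each array of replicates 3 and 4 was lower than each of replicates 1 and 2 (difference -0.58, standard error 0.0925, limma adjusted p = 0.00390). The effectors Gli2 (-0.46), Gli3 (-0.34) and Gli1 (-0.34) and the coreceptor Gas1 (-0.31) fell too (limma adjusted p from 0.00224 to 0.0444), and of these Gli3, Gli1 and Gas1 had adjusted p from 0.0584 to 0.124 with the replicate block. The ligand genes Ihh (-0.05) and Dhh (-0.11) did not pass.

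Among Wnt genes the receptors Ror2 (-0.53), Fzd7 (-0.52) and Fzd2 (-0.42) and the feedback genes Znrf3 (-0.45) and Axin2 (-0.36) fell, with limma adjusted p from 0.00132 to 0.00754, and passed with the replicate block. The receptor Lgr5 (-0.49), the ligand Wnt5a (-0.48) and the inhibitor receptor Kremen1 (-0.29) fell but had adjusted p from 0.0582 to 0.164 with the block. Other feedback inhibitors did not pass, among them Nkd2 at 0.10, Notum at 0.06 and Rnf43 at -0.22. Of Notch genes the ligand Jag2 fell by 0.34 and the effector Hey2 rose by 0.43 (limma adjusted p = 0.0161 and 0.0143; 0.0883 and 0.0714 with the replicate block), and the effector Hes1 stood at -0.02.

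Ligands of the BMP and TGF-beta families moved both ways. Of 26 measured members 4 rose and 6 fell (38.5%, beside 15.9% of all genes), with a median of -0.0683. With the replicate block 2 rose and 4 fell. Bmp6 stood at 11.15 and 11.31 in Dom/Dom and 11.41 and 11.36 in WT of replicates 1 and 2, against 10.50 and 10.63 in Dom/Dom and 10.46 and 10.55 in WT of replicates 3 and 4. The 2 sets of arrays were clearly separate (difference -0.77, standard error 0.0769, limma adjusted p = 0.000857). Tgfb3 (-0.72), Gdf11 (-0.53), a regulator of axial patterning, and Gdf10 (-0.52) fell as well, with limma adjusted p from 0.00309 to 0.00405.

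The BMP antagonist Nog (-0.40) and the inhibin subunit Inha (-0.33) also fell. The activin subunit Inhba (0.56, limma adjusted p = 0.00483), the TGF-beta induced matrix gene Tgfbi (0.55, 0.0120), the receptor Bmpr1a (0.30) and the BMP target Id2 (0.28) rose. Bmp4 stood at 0.01 and Tgfb2 at 0.01, and neither passed.

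Of 30 FGF, retinoid and growth factor genes 8 fell and 0 rose (26.7%, beside 15.9% of all genes). With the replicate block 2 fell, Igfbp2, a binding protein of insulin-like growth factors (-0.62, limma adjusted p = 0.00536), and the ligand Fgf18 (-0.46, 0.00196). The other 6 were Pdgfb (-0.39), the retinoic acid receptor gene Rara (-0.31), the FGF feedback gene Spry2 (-0.30), Erbb2 (-0.28), the retinol dehydrogenase Rdh10 (-0.27) and Fgf9 (-0.27). The list's median was -0.0677. With centred arrays 3 fell and 1 rose, and leaving out 1 array gave 2 to 8 falls. Other retinoid receptors did not pass: Rarb stood at -0.04 and Rarg at -0.06.

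**Figure D5:**
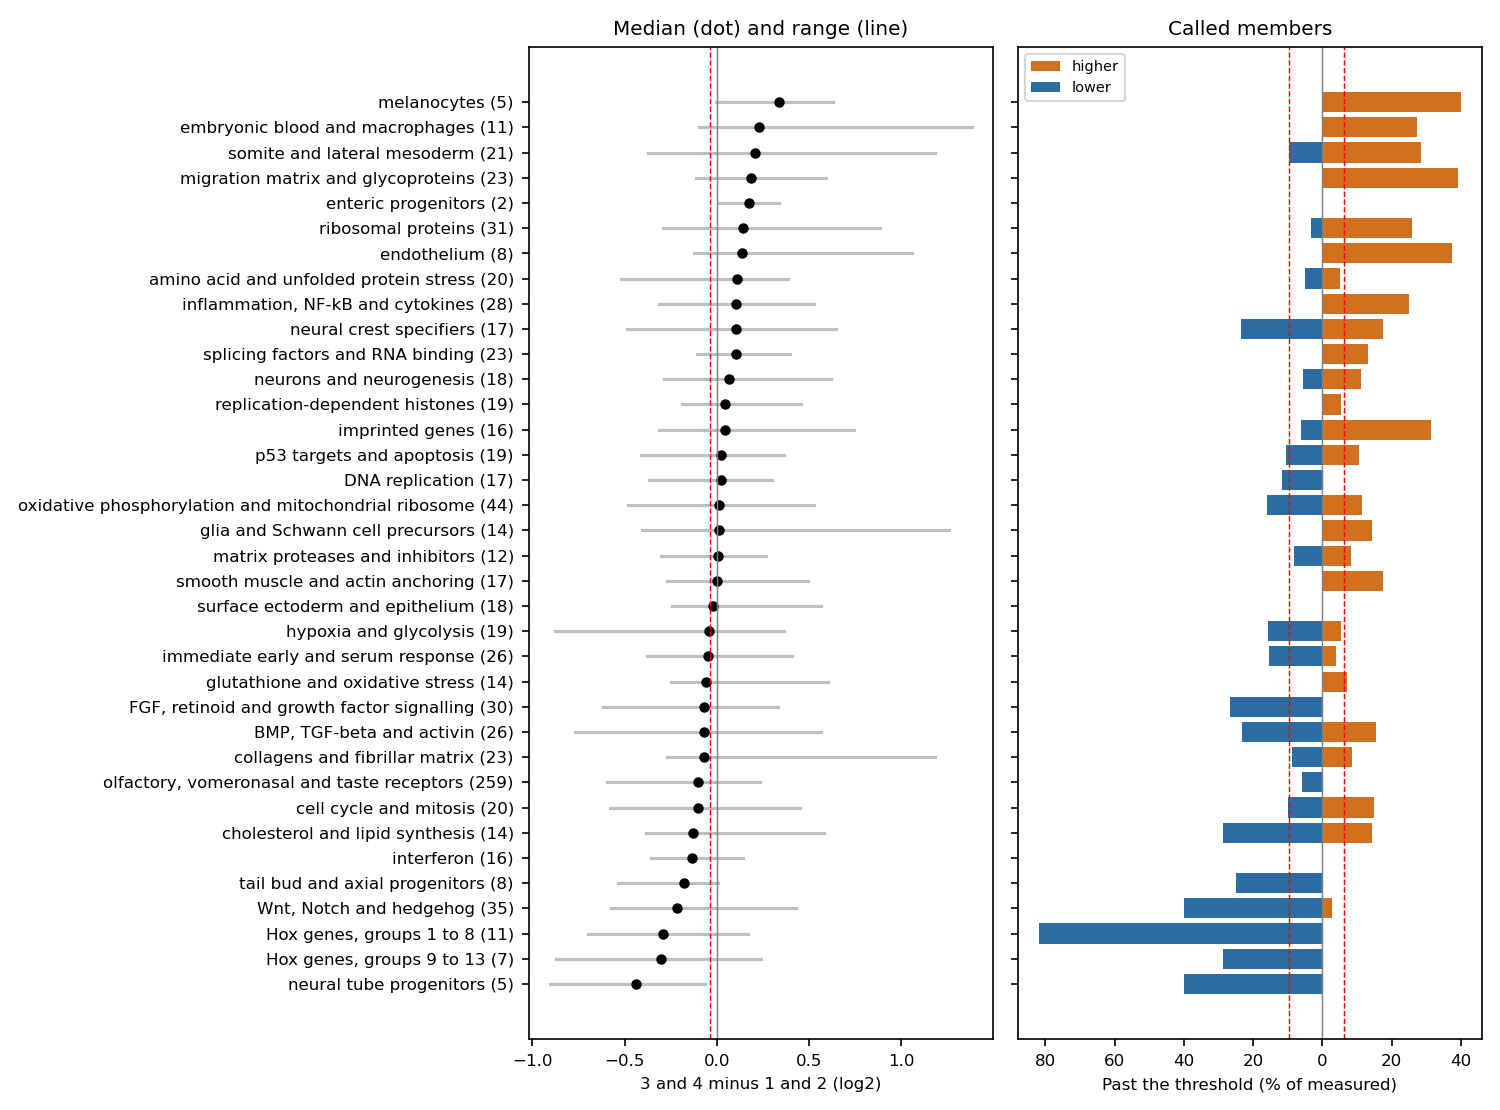
Gene lists, with the number of measured members in brackets. On the left, the median (dot) and full range (line) of the difference in log2 units, replicates 3 and 4 minus 1 and 2; on the right, the share of members (%) that passed, higher to the right and lower to the left. Dashed red lines mark the values over all genes, a median of -0.04, 6.21% higher and 9.66% lower. Hox genes of groups 1 to 8 have the longest bar, 81.8% lower.

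Genes of the neural tube itself had differences below 0, and some passed. Of 5 measured members 2 fell (40%, beside 15.9% of all genes), with and without the replicate block. A difference above 0 was seen in 0 of 5 (median -0.44). Sox21, a SoxB factor of neural progenitors (probe set 10422272, chromosome 14), stood at 10.91 and 10.98 in Dom/Dom and 10.40 and 11.01 in WT of replicates 1 and 2, and at 9.90 and 9.92 in Dom/Dom and 9.98 and 9.86 in WT of replicates 3 and 4. The arrays of replicates 3 and 4 lay close together and below all of replicates 1 and 2 (difference -0.91, standard error 0.121, limma adjusted p = 0.00175).

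En1, a homeobox gene of ventral interneurons, the hindbrain border and somites, fell by 0.56 (limma adjusted p = 0.00827). Lhx1 (-0.44), Dbx2 (-0.27) and Wnt1 (-0.06) did not pass. In bulk samples such as these, fewer cells of a type and less RNA per cell cannot be told apart. The mean level of the 5 genes ran from 9.56 to 9.94 on the arrays of replicates 1 and 2 and from 9.18 to 9.49 on those of replicates 3 and 4.

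Of 8 tail bud and axial progenitor genes 2 fell, Gdf11 and Wnt5a (25%, beside 15.9% of all genes). Gdf11 alone passed with the replicate block. A difference above 0 was seen in 1 of 8 (median -0.176). With centred arrays 1 fell. The presomitic genes Msgn1 (-0.24) and Hes7 (-0.13) and the progenitor ligands Wnt3a (-0.15) and Fgf17 (-0.20) did not pass.

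Neural crest specifiers split. Of 17 measured members 3 rose and 4 fell (41.2%, beside 15.9% of all genes), with a median of 0.105. With the replicate block 1 rose and 1 fell. Snai2, a zinc-finger factor of crest emigration, stood at 10.81 and 10.94 in Dom/Dom and 11.39 and 10.86 in WT of replicates 1 and 2, against 11.54 and 11.62 in Dom/Dom and 11.69 and 11.75 in WT of replicates 3 and 4. WT replicate 1 came nearest to the higher set, without overlap (difference 0.65, standard error 0.107, limma adjusted p = 0.00470). Cdh6, a cadherin of emigrating crest, rose by 0.34 and Id2 by 0.28 (limma adjusted p = 0.00851 and 0.0211; 0.0521 and 0.0830 with the replicate block).

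The specifiers that fell were Zic2 (-0.48, limma adjusted p = 0.00534) and Zic5 (-0.43, 0.0124), factors of the dorsal neural tube and premigratory crest, Sox9 (-0.28, 0.0202), which acts in premigratory crest, and the growth regulator Mycn (-0.27, 0.0151). Of these Zic2 passed with the replicate block (limma adjusted p = 0.0378). Ngfr (-0.41) and Tfap2a (0.22) did not pass.

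Of 14 glial genes 2 rose and 0 fell (1 with the replicate block). That is 14.3%, near the 15.9% of all genes, and the median was 0.0113, with opposite signs in Dom/Dom (-0.128) and WT (0.183). The Schwann cell precursor cadherin Cdh19 (probe set 10357103, chromosome 1) stood at 6.09 and 6.63 in Dom/Dom and 10.39 and 10.37 in WT of replicates 1 and 2, and at 7.14 and 7.63 in Dom/Dom and 11.83 and 11.91 in WT of replicates 3 and 4. Within each genotype the sets did not overlap, while the genotypes were far apart. All 4 Dom/Dom values lay below 8.13, the level under which 95% of receptor genes of smell and taste lay, so they were those of a dim probe set. Between the sets Cdh19 rose by 1.26 (standard error 0.151, limma adjusted p = 0.00133), and by 1.5 within WT.

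Erbb3, the neuregulin receptor, rose by 0.57 (limma adjusted p = 0.0474; 0.184 with the replicate block). Dom/Dom replicate 1, at 10.03, was its lowest array, and the sets overlapped within Dom/Dom. Fabp7, a fatty acid binding protein of glial progenitors, stood at -0.04.

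Of 5 melanocyte genes 2 rose and 0 fell (40%, beside 15.9% of all genes, and 0 with the replicate block). Dct, an enzyme of melanin synthesis, stood at 7.75 and 8.27 in Dom/Dom and 10.76 and 10.33 in WT of replicates 1 and 2, against 8.54 and 8.74 in Dom/Dom and 11.12 and 11.21 in WT of replicates 3 and 4. It was higher in replicates 3 and 4 by 0.64 in Dom/Dom and 0.62 in WT (difference 0.63, standard error 0.127, limma adjusted p = 0.0104; 0.0791 with the replicate block). Pmel, which forms melanosome fibrils, rose by 0.39 (0.0248; 0.0787 with the block).

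Of 18 neuronal genes 2 rose and 1 fell (1 and 0 with the replicate block). That is 16.7%, near the share of all genes, and the median was -0.118 in Dom/Dom and 0.307 in WT. With centred arrays 0 fell, and leaving out 1 array gave 1 to 6 rises. Pou4f1, a sensory neuron factor, rose by 0.48 (limma adjusted p = 0.00299), from 9.10 and 8.94 in Dom/Dom and 9.57 and 9.68 in WT to 9.39 and 9.55 in Dom/Dom and 10.10 and 10.19 in WT. The sets did not overlap within either genotype. Isl1, another factor of sensory and sympathetic neurons, rose by 0.62 (0.0402; 0.204 with the block), 0.29 in Dom/Dom and 0.95 in WT, and Stmn4 fell by 0.29 (0.0408; 0.129 with the block). The enteric receptor genes Ednrb (0.34) and Gfra2 (0.01) did not pass.

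Several genes of mesoderm and connective tissue were higher in replicates 3 and 4. Of 21 somite and lateral mesoderm genes 6 rose and 2 fell (38.1%, beside 15.9% of all genes), and the median was 0.209. With the replicate block 3 rose and 0 fell. Prrx1, a homeobox factor of mesenchyme (probe set 10359624, chromosome 1), stood at 10.66 and 10.54 in Dom/Dom and 10.17 and 9.93 in WT of replicates 1 and 2, against 11.20 and 11.39 in Dom/Dom and 10.93 and 10.99 in WT of replicates 3 and 4. Every array of replicates 3 and 4 was the higher, in both genotypes (difference 0.80, standard error 0.0857, limma adjusted p = 0.00104).

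Lum, which encodes the collagen-binding proteoglycan lumican, stood at 7.18 and 7.52 in Dom/Dom and 7.39 and 8.06 in WT of replicates 1 and 2, and at 8.91 and 9.36 in Dom/Dom and 8.09 and 8.53 in WT of replicates 3 and 4. WT replicates 2 and 3 were nearly equal, and the rise was 1.78 in Dom/Dom and 0.59 in WT (difference 1.18, standard error 0.253, limma adjusted p = 0.0130; 0.0746 with the replicate block). Its neighbour on chromosome 10, the proteoglycan gene Dcn, rose by 0.74 (0.0400; 0.191 with the block).

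Mef2c (0.61), a muscle and endothelial factor, and the mesenchymal factors Twist2 (0.54) and Tbx2 (0.44) rose, and Twist2 and Tbx2 passed with the block. Tbx4, a hindlimb factor, fell by 0.38 and Pax9, a sclerotome factor, by 0.34 (limma adjusted p = 0.0128 and 0.0200; 0.0624 and 0.0668 with the replicate block). The muscle genes Myf5 (0.27) and Myog (0.16) did not pass.

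The matrix genes of cell migration that passed all rose. Of 23 measured members 9 rose and 0 fell (39.1%, beside 15.9% of all genes in either direction). Of the 23, 18 lay above 0, and the median was 0.187. With the replicate block 3 rose, beside 2.09% of all genes. Those 3 were Tgfbi, the laminin chain gene Lamb1 (0.41, limma adjusted p = 0.00839) and Abi3bp (0.41, 0.00542). The others were the laminin chains Lama4 (0.59) and Lama2 (0.49), the integrin ligand Edil3 (0.40), the elastic fibre gene Fbln5 (0.38), and Hapln1 (0.38) and Vcan (0.31), which build hyaluronan matrix, with limma adjusted p from 0.01 to 0.0474 and from 0.0521 to 0.173 with the block. Lama4 rose by 0.99 in WT and 0.19 in Dom/Dom, a difference whose own test did not pass. Fn1 stood at 0.06.

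Leaving out 1 array gave 4 to 9 rises. Of 23 collagens and fibrillar matrix genes 2 rose, which were Lum and Dcn again, and 2 fell, Col18a1 and Col2a1, both by 0.27. That is 17.4%, near the 15.9% of all genes. With centred arrays or quantile normalization 0 fell. The fibrillar collagens Col1a1 (-0.16) and Col3a1 (0.16) did not pass. Of 12 matrix proteases and inhibitors 1 rose, Timp3 (0.27), and 1 fell, Mmp11 (-0.30), and none of these 6 genes passed with the block. The share of the protease list that passed was 16.7%, again near that of all genes.

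Of 17 smooth muscle and actin anchoring genes 3 rose and 0 fell (0 with the replicate block): Myocd, a coactivator of smooth muscle genes (0.49, limma adjusted p = 0.0205), Fermt2 (0.39, 0.00839) and Vcl (0.25, 0.0349), which anchor integrins to actin. The share that passed was 17.6%, near the 15.9% of all genes. The median was -0.000788 and changed sign with the scaling of the arrays (0.0405 when they were centred on their medians). Of 18 epithelial genes 0 passed (limma, 0 with the block too), with a median of -0.0221 that also changed sign when the arrays were centred (0.0192). Krt5 stood at 0.56 and Cldn7 at -0.24.

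Some genes of blood and vessels were higher in replicates 3 and 4. Hba-x, the embryonic zeta globin gene (probe set 10375046, chromosome 11), stood at 10.74 and 12.06 in Dom/Dom and 12.23 and 11.67 in WT of replicates 1 and 2, against 12.77 and 12.51 in Dom/Dom and 13.52 and 13.44 in WT of replicates 3 and 4. The sets did not overlap, and Dom/Dom replicate 1 was lowest (difference 1.38, standard error 0.244, limma adjusted p = 0.00592; 0.0528 with the replicate block).

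Slc4a1, the anion exchanger of red cells, stood at 8.67 and 9.42 in Dom/Dom and 9.37 and 9.30 in WT of replicates 1 and 2, and at 9.62 and 9.69 in Dom/Dom and 10.93 and 10.94 in WT of replicates 3 and 4. It was highest in the WT arrays of replicates 3 and 4 (difference 1.10, standard error 0.206, limma adjusted p = 0.00772; 0.0628 with the block). Lyz2, a lysozyme of macrophages, rose by 0.62 (0.00196; 0.0134 with the block), from levels of 7.39 to 7.60 to levels of 8.01 to 8.28, with a mean over the arrays below 8.13.

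In all, 3 of 11 blood and macrophage genes rose and 0 fell (27.3%, beside 15.9% of all genes), with a median of 0.228. With the replicate block Lyz2 alone passed, and with dim genes left out 2 of 5 rose. The mean level of the list ran from 8.43 to 8.62 in replicates 1 and 2 and from 8.86 to 8.95 in replicates 3 and 4. The pan-leukocyte gene Ptprc stood at -0.01, and Fcer1g at 0.23. Of 8 genes listed under endothelium 3 rose and 0 fell (37.5%, beside 15.9% of all genes). They were Rgs5, described above as a gene of pericytes, Cd34 (0.66, limma adjusted p = 0.00933) and Mmrn2 (0.34, 0.0109). With the replicate block Rgs5 alone passed, and Cd34 and Mmrn2 had limma adjusted p = 0.0521 and 0.0522. Pecam1 stood at 0.22 and Cldn5 at -0.13, and neither passed.

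The list means of blood, endothelium and somite and lateral mesoderm did not overlap between the sets. Mesoderm lay at 8.63 to 8.79 and 8.89 to 9.03, and the endothelium list, which includes Rgs5, at 8.33 to 8.52 and 8.66 to 8.72. Such separation was not particular to these lists. The means of Hox genes of groups 1 to 8, of Wnt, Notch and hedgehog genes and of ribosomal protein genes did not overlap either. Nor did those of the silent receptor genes of smell and taste (6.47 to 6.60 and 6.37 to 6.46). The part of blood, endothelium and mesoderm in the other differences between the sets was not tested.

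Of 28 genes of inflammation, NF-kB and cytokines 7 rose and 0 fell (25%, beside 15.9% of all genes), with a median of 0.106. With the replicate block 2 rose. Leaving out 1 array gave 3 to 7 rises and 0 to 2 falls, and with dim genes left out 4 of 18 rose. Il1r1, the interleukin 1 receptor gene (0.52, limma adjusted p = 0.00470), and Socs2, a feedback inhibitor of cytokine signalling (0.42, 0.00712), passed with the block. The chemokine genes Ccl3 (0.53) and Ccl2 (0.32), the receptors Lifr (0.50) and Il1rl2 (0.37) and the transcription factor Stat3 (0.28) passed without it. Nfkbia stood at -0.28 and Socs3 at -0.17. In the window of 250 bases before and 50 after the gene start, 0 of the 5 genes with a RefSeq promoter held the NF-kB motif on either strand, beside 1.61% of 5293 genes. Of 16 interferon genes 0 passed by limma, and Ifi203 and Ly6e had the largest differences, at -0.29 and -0.35.

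Ribosomal protein genes that passed rose, with 1 exception. Of 31 ribosomal protein genes 8 rose and 1 fell (29%, beside 15.9% of all genes), and with the replicate block 3 rose and 0 fell. Of the 31, 25 lay above 0, and the median was 0.139. Rpl38 (probe set 10382369, chromosome 11) stood at 12.79 and 12.78 in Dom/Dom and 12.79 and 12.70 in WT of replicates 1 and 2, against 13.63 and 13.67 in Dom/Dom and 13.62 and 13.68 in WT of replicates 3 and 4. The 4 values of each set lay close together (difference 0.88, standard error 0.0606, limma adjusted p = 0.000251).

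Rpl13 (0.49, limma adjusted p = 0.00376), Rps25 (0.47, 0.00328) and Rpl23a (0.41, 0.0149) were next, and Rpl23a had adjusted p = 0.0522 with the block. Rps28, Rps4x, Rplp0 and Rps6 rose by 0.20 to 0.25, and Rpl8 fell by 0.29 (0.0236; 0.0894 with the block). Ribosomal protein genes have many processed copies that share sequence (Rpl23a had 10 probe sets in this table), so the assignment of a probe set to the gene is uncertain for this family. It is uncertain for some other genes too, since probe set numbers here run by chromosome. Those of Snord58b, Bnip3, Prdx1, Me1, Srsf10, Socs2 and Zic5 lie among the numbers of genes on other chromosomes. The same holds for the probe sets given to Rpl13, Rps25 and Rpl23a. Leaving out 1 array gave 3 to 7 rises.

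Of 23 splicing and RNA-binding genes 3 rose and 0 fell (1 with the block): the kinase gene Clk1 (0.40), the nucleolar gene Npm1 (0.38, limma adjusted p = 0.00524) and Srsf10 (0.26). That is 13%, beside 15.9% of all genes. Of 44 genes of oxidative phosphorylation and the mitochondrial ribosome 5 rose and 7 fell (27.3%, beside 15.9% of all genes). With the block 1 fell, Sdhc, a subunit of succinate dehydrogenase (-0.48, limma adjusted p = 0.00233). With centred arrays 8 rose and 4 fell, and leaving out 1 array gave 1 to 8 rises and 1 to 7 falls. The largest rise there was that of Mrps36 (0.53).

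Cell division genes had no common direction. Of 20 cell cycle genes 3 rose and 2 fell (0 and 1 with the replicate block), with a median of -0.103. Leaving out 1 array gave 0 to 5 rises and 2 to 4 falls. The rises were those of Hmmr (0.44), Cdk1 (0.31), the central mitotic kinase, and Cks2 (0.30), and the falls those of Espl1, which encodes separase (-0.58, limma adjusted p = 0.00541), and Troap (-0.33). The mean of the list ran from 10.81 to 11.16 in replicates 1 and 2 and from 10.85 to 11.07 in replicates 3 and 4, so the sets overlapped. Of 17 DNA replication genes 2 fell, Tk1 (-0.37) and Timeless (-0.32), and 0 rose (0 with the block), and of 19 histone genes 1 rose, H2bc3 (0.46, 0.00532). The shares that passed were 25% for cell cycle, 11.8% for DNA replication and 5.26% for histone genes, beside 15.9% of all genes. TTTGAA, on either strand, was held by the promoter windows of 2 of the 3 cell cycle genes that rose (Cdk1 and Hmmr), beside 16.8% of all.

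Of 19 hypoxia and glycolysis genes 3 fell and 1 rose (1 and 1 with the replicate block), with a median of -0.0424. That is 21.1%, beside 15.9% of all genes. With centred arrays 2 fell and 3 rose, and leaving out 1 array gave 1 to 4 falls. Egln3, whose product marks the factor HIF1A for destruction when oxygen is present, stood at 10.77 and 11.09 in Dom/Dom and 10.66 and 10.65 in WT of replicates 1 and 2, against 10.06 and 10.37 in Dom/Dom and 9.56 and 9.68 in WT of replicates 3 and 4. Replicates 3 and 4 were lower throughout, and WT lower than Dom/Dom in each pair (difference -0.88, standard error 0.106, limma adjusted p = 0.00135). The glycoprotein hormone gene Stc2 (-0.52) and the mitophagy receptor Bnip3 (-0.39) fell without the block (0.0189 and 0.0454; 0.101 and 0.113 with it), and the mTOR inhibitor Ddit4 rose by 0.36 (0.00948; 0.0427 with it). The glycolytic gene Pgk1 stood at 0.00 and Hif1a at 0.17.

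The core of the hypoxia response element, ACGTG, was found on either strand in the promoter windows of 2 of these 3 falling genes, Egln3 and Bnip3, beside 25.3% of 5293 genes. Their 250 bases before the gene start are shown, read on the strand of the gene, with the match in capitals (RefSeq, GRCm38.p6; Egln3 at chr12:54203875-54204124 and Bnip3 at chr7:138909507-138909756, both on the minus strand). The probe set given to Bnip3 (10414269) is numbered among those of genes on chromosome 14, so its assignment to Bnip3 on chromosome 7 is uncertain. The match of Egln3 begins 229 bases before the gene start, and the 2 overlapping matches of Bnip3 begin 108 bases before it and form a palindrome.
Egln3: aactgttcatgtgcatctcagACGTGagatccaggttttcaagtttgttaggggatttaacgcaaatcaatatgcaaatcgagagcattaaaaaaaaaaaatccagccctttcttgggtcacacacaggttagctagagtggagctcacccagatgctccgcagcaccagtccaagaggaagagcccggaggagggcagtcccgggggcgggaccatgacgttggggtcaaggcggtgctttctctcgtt
Bnip3: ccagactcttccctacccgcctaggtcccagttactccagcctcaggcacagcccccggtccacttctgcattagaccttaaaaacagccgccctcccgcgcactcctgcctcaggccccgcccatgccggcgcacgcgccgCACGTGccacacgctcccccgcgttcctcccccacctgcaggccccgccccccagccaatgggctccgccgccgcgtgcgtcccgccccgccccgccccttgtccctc

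Of 14 cholesterol and lipid synthesis genes 4 fell and 2 rose (42.9%, beside 15.9% of all genes). With the replicate block 1 fell and 1 rose. Fatty acid synthase, Fasn (-0.38, limma adjusted p = 0.00571), the sterol cyclase Lss (-0.37) and the regulators Srebf1 (-0.28) and Srebf2 (-0.27) fell, and the isoprenoid enzyme Idi1 (0.58, 0.00692) and malic enzyme Me1 (0.38) rose. Fasn and Idi1 passed with the block, and leaving out 1 array gave 1 to 3 falls. TCACCCCAC was in the promoter windows of 0 of the 4 that fell, beside 0.737% of all.

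Of 26 immediate early and serum response genes 4 fell and 1 rose (1 and 0 with the block), and leaving out 1 array gave 1 to 6 falls: Btg2 (-0.38), Maff (-0.35), Trib1 (-0.34, limma adjusted p = 0.00748) and Dusp10 (-0.28) against Btg1 (0.41). Fos stood at -0.31 and did not pass. Of the list 19.2% passed, near the 15.9% of all genes. The serum response motif, the CArG box, was in 0 of 3 promoter windows of those that fell and in 1 of 2 of the smooth muscle genes that rose (Vcl), beside 1.36% of all, and AGATAA in 0 of 2 of the blood genes that rose, beside 9.48%.

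Of 19 p53 and apoptosis genes 2 rose, Ddit4 and Mdm2 (0.35), and 2 fell, the survival gene Bcl2 (-0.41, limma adjusted p = 0.00948) and Btg2. With the replicate block Ddit4 and Bcl2 passed, and Mdm2 and Btg2 had limma adjusted p = 0.0865 and 0.0522. Of 20 genes of amino acid and unfolded protein stress 1 rose and 1 fell, Ddit4 and Stc2, which also stand in the hypoxia list. With the block 1 rose and 0 fell, and with centred arrays 4 rose and 1 fell. Of 14 glutathione and oxidative stress genes 1 rose, the peroxiredoxin Prdx1 (0.60, 0.00169). The shares that passed were 21.1% for p53 and apoptosis, 10% for amino acid and unfolded protein stress and 7.14% for glutathione, beside 15.9% of all genes.

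Imprinted genes are expressed from 1 parental copy. Of 16 measured members 5 rose and 1 fell (37.5%, beside 15.9% of all genes), with a median of 0.0417. With the replicate block 1 rose and 0 fell. Dlk1, a transmembrane regulator of growth (probe set 10398319, chromosome 12), stood at 11.68 and 11.92 in Dom/Dom and 11.21 and 11.57 in WT of replicates 1 and 2, against 12.41 and 12.44 in Dom/Dom and 11.98 and 11.95 in WT of replicates 3 and 4. The 4 higher arrays were those of replicates 3 and 4 (difference 0.60, standard error 0.0910, limma adjusted p = 0.00307). Dcn, the noncoding RNA gene Rian (0.43), the transporter Slc38a4 (0.34) and the growth inhibitor Grb10 (0.24) rose, and the channel gene Kcnk9 fell by 0.31, and none of these passed with the block. Meg3, next to Dlk1, stood at 0.05.

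MicroRNAs are short RNAs that pair with messenger RNAs through a seed and lower their output. Of 126 genes measured, 24 passed (19%, beside 15.9% of all genes), 13 upward and 11 downward, and 7 with the replicate block. A probe set on such a gene does not tell the precursor from the mature RNA, and 81 of the 126 had a mean level below 8.13, the level of silent receptor genes. Of 40 miRNA genes between Dlk1 and Dio3, 6 rose and 2 fell, with a median of -0.005.

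Mature sequences are shown for the miRNA genes with the largest rises and the largest fall, for miR-15a, whose host gene Dleu2 also rose, and for miR-181a and miR-181b, the 1 pair of genes that passed and share a seed. They are RefSeq sequences (GRCm38.p6), with the seed, bases 2 to 8, in capitals.
let-7f-5p: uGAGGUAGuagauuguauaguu
miR-10a-5p: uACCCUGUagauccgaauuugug
miR-181a-5p: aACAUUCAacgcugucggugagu
miR-181b-5p: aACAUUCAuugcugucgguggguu
miR-15a-5p: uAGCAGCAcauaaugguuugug
miR-218-5p: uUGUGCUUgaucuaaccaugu
They lie at chr13:48537889-48537910 (let-7f, minus strand), chr11:96317186-96317208 (miR-10a, plus), chr1:137966468-137966490 (miR-181a, plus), chr1:137966650-137966673 (miR-181b, plus), chr14:61632075-61632096 (miR-15a, minus) and chr11:35616840-35616860 (miR-218, plus).

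Mirlet7f-1, of the let-7 family that marks differentiating cells, rose by 1.09 (limma adjusted p = 0.00329; 0.0205 with the replicate block), from a mean of 6.54 to 7.63. Mir10a, which lies inside the HoxB cluster, stood at 7.11 and 6.70 in Dom/Dom and 6.59 and 7.01 in WT of replicates 1 and 2, against 7.95 and 8.05 in Dom/Dom and 7.48 and 7.70 in WT of replicates 3 and 4. It was higher in every array of replicates 3 and 4 (difference 0.94, standard error 0.126, limma adjusted p = 0.00175), while Hoxb4, its neighbour, fell by 0.60.

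Dleu2 rose by 1.25 and Mir15a within it by 0.44 (limma adjusted p = 0.00211 and 0.0137; 0.0138 and 0.0942 with the replicate block). Mir181a-1 and Mir181b-1, which lie together on chromosome 1, rose by 0.56 and 0.57 (0.0285 and 0.0194; 0.0690 and 0.122 with the block). Mir218-2, located within the guidance gene Slit3, fell by 0.94 (0.0155; 0.0953 with the block), and Dom/Dom replicate 1, at 9.49, stood above the other arrays of its set. Slit3 itself differed by 0.01.

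Receptor genes of smell and taste, which are thought to be silent in these cells, gave a view of dim probe sets. Of 259 measured, 0 rose and 15 fell (5.79%; 5 with the replicate block), 38 lay above 0, and the median was -0.103, -0.112 in Dom/Dom and -0.105 in WT. The array means ran from 6.47 to 6.60 in replicates 1 and 2 and from 6.37 to 6.46 in replicates 3 and 4. Over the 1714 genes with the lowest mean level the median difference was -0.0512, and over the 1714 with the highest it was 0.0224. The share of falls among the genes that passed therefore depends on the scaling: with each array centred on its median, 1070 genes passed, 610 higher and 460 lower, and with quantile normalization 1238 passed, 607 higher and 631 lower. These settings moved the median of all genes from -0.04 to 0.00294 and -0.0061, and Hox genes of groups 1 to 8 then had 6 and 8 falls and Wnt, Notch and hedgehog genes 10 and 11. None of the 121 named genes changed sign under them.

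Holding the set constant raised the number of genes that differed between genotypes. With the set as covariate 116 genes (1.69%) differed, 30 higher and 86 lower in Dom/Dom, against 33 (0.481%), 5 higher and 28 lower, with genotype alone, and all 33 were among the 116. With the replicate number as a fixed block the count was 103, of which 83 were among the 116. Inhba was higher in Dom/Dom by 0.65 once the set was held constant (limma adjusted p = 0.00716), as was Rgs5 by 0.90 (0.000445), and Pou4f1 was lower by 0.64 (0.00249). Without any 1 array of replicates 3 and 4 the count was 47 to 50, and without Dom/Dom replicate 1 it was 201.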

How the data were processed

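Sacral neural crest RNA of 8 samples was hybridised to 1-colour Affymetrix Mouse Gene 1.0 ST arrays. The deposited values are log2 levels per probe set, normalized by RMA and handled in Partek, per the submitters' processing notes; background settings and genome build are not given in the sources used here. No scanner files were used. Probe sets with exactly 1 gene symbol were kept (509 had several, 8456 none), and the brightest over all arrays stood for each of 6855 genes. The 8 arrays were fitted with limma 3.58.1 in R 4.3.3 on genotype and set, with Benjamini-Hochberg adjustment over all genes and a threshold of 0.05. The set difference has 4 arrays a side, but this fit treats them as independent. Same-numbered arrays deviated together (consensus correlation 0.427), so the precision is limited by the replicate numbers a side, which are fewer than the arrays. The count of 1088 genes rests on the fit without the block, and 379 passed with it.

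Arrays of the same replicate number in the 2 genotypes correlated across genes in their deviations from the genotype means, at 0.465, 0.577, 0.607 and 0.668 for numbers 1 to 4, against 0.107 to 0.381 for different numbers of one set. The numbers were therefore taken to pair samples and entered as a random block (duplicateCorrelation), because a number lies wholly inside a set. This pairing comes from the titles' numbers and these correlations, since no label names a shared litter or day.

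Named genes were the 12 largest rises and falls among genes that passed and were separated within both genotypes, up to 4 members of each list with the largest changes that passed (2 where none passed), Sox10, Hba-x, and up to 6 genes past the threshold for the interaction with the largest difference. Where a list had more members past the threshold, or a member that did not pass is given, it was named after its values were seen. The split into sets, the lists and the members were chosen with earlier results of these data known, so the p-values are not independent evidence. The fits were also run on simulated arrays, whose outcome is not given here and is not used as support. Alternatives covered scaling, filters, probe set choice, blocks and left-out arrays.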

Additional observations from a re-analysis of the deposited data

Results flagged for a closer look

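Gabrp differed in its set difference between genotypes, with an interaction of -3.15 (Dom/Dom minus WT, standard error 0.307, limma adjusted p = 0.0179).

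In 3 of 242 sets of 4 arrays 1 array stood far from the others by Dixon's criterion. Chance meets it in about 1 of 20 unselected sets, which would be 12 here. These sets were the arrays of 1 genotype for each of the 121 named genes, chosen mainly because they passed between the replicate sets. Arrays that split by replicate set leave less room for a lone far array. The 3 against 12 therefore cannot decide on the quality of the arrays. Erbb3 stood at 10.03 in Dom/Dom replicate 1, with the other Dom/Dom arrays at 10.80 to 10.96. Ly6e, a lymphocyte antigen gene induced by interferon, stood at 12.54 in WT replicate 1, with the other WT arrays at 11.59 to 11.71, and at 12.47 in Dom/Dom replicate 1, with the others at 11.94 to 12.01. The high Ly6e arrays of both genotypes carry the same replicate number.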

How the results depend on the processing

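The count of 1088 genes between the sets was 379 with the replicate block and 375 with the 2 arrays of a number averaged. It was 305 for the set difference within Dom/Dom and 177 for that within WT, each tested with the spread pooled over both genotypes. It was 377 at a threshold of 0.01, 131 with at least 1.5-fold, and 2080 over all probe sets of the table. Leaving out 1 array gave 516 to 1050, and leaving out both arrays of a number 45 (without replicate 4) to 1416 (without replicate 2), with 152 without replicate 3. Other settings (no genotype term, average over a genotype by set model, array weights, trend and robust fit, centring, quantile normalization, mean of probe sets, filter on dim genes) gave 975 to 1344. With the replicate block 68 of 121 named genes kept their side of the threshold and 53 lost their call; without replicate 4, 100 lost it. Without replicate 1 or 2, which leaves out as many arrays, 11 and 18 named genes lost their call. The cause was not tested.

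The interaction count of 1 was 0 to 9 without 1 array. The genotype count of 116 was 33 with genotype alone, 103 with replicate as a fixed block, and 47 to 201 without 1 array.

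In Dom/Dom arrays alone the set difference was -0.0947 for Ednrb, -0.64 for Gabrp, -0.19 for Gfra2 and -0.047 for Krt5. Over fits that left out a replicate it ran from -0.18 to 0.20 for Gfra2 and from -0.0229 to 0.38 for Sox10. None of these 5 genes had passed over all 8 arrays; the Sox10 set difference passed without Dom/Dom replicate 2 (0.38, limma adjusted p = 0.0325). The spread rests on 8 arrays, and dim probe sets near the level of silent receptors bound what can be told of low genes.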
